A study of Mus musculus with 24 samples.

Results

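Carbonic anhydrases were followed through 9 genes, Car2, Car3, Car4, Car5b, Car8, Car9, Car12, Car13 and Car14, out of 18539 gene symbols that had a probe on the array. A probe was taken for a gene when its RefSeq accession mapped to that gene, and of several probes for 1 gene the one used was selected on its brightness in each tissue. The genes themselves were chosen with the results of these arrays known, so their values are given with that in mind. The 24 arrays measured RNA from endothelial cells of the aorta or of the leg muscles (plantaris, gastrocnemius and biceps femoris), sorted as live CD105+/CD45- cells, of wild-type C57BL/6 mice (WT) and galectin-3 (-/-) mice (KO) on a high-fat diet (HFD, 60% of calories from fat) or on chow (12%). All mice were male, began the diet at 8 weeks of age and stayed on it for 8 weeks. Each of the 8 groups of tissue, strain and diet had 3 arrays, 1 from each of 3 experiments, and each array held RNA amplified from about 10000 cells pooled from 3 to 4 mice. The KO mice carry a targeted deletion in all their cells, not in endothelium alone, and the aorta and muscle arrays of a group in an experiment came from the same pool of mice.

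Carbonic anhydrases catalyse the exchange of CO2 and water for bicarbonate and a proton. They set how fast CO2 and acid leave a tissue, and they supply bicarbonate to the carboxylases of fat and sugar synthesis. Car2, Car3 and Car13 are cytosolic, Car5b is mitochondrial, and Car4, Car9, Car12 and Car14 are held in the cell membrane with the catalytic site outside the cell. Car4 is a known enzyme of the luminal face of capillaries. Car3 is abundant in adipocytes and in slow muscle fibres, Car9 is a classical target of the hypoxia-inducible factors, and Car8 is a related protein that lacks catalytic activity.

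The level of a gene is given as the log2 processed signal of its probe relative to the 75th percentile of its array, so that 0 is that percentile. Levels were compared between arrays for the same probe and never between probes. Where groups are said not to overlap, this describes the few arrays named and is not a test. No share of all probes is given for it. The share of spots well above background was 59.5% to 75.7% per array. Each slide carried the 4 arrays of 1 tissue and 1 experiment, and experiment 1 was scanned apart from experiments 2 and 3. The probe for Lgals3, the deleted gene, did not lose its signal on arrays labelled KO. It was well above background on all 24 arrays and higher in the array labelled KO in 11 of 12 WT and KO pairs. The study's KO lacks only part of the gene, and it reported the loss in DNA, RNA and protein. Whether that probe lies in the deleted part of the gene was not tested. At 32 probes that passed the strain test in experiments 2 and 3, the experiment 1 HFD arrays had median positions of 0.169 to 0.443 on a scale where WT is 0 and KO is 1, against 0.0942 and 0.0953 for its WT chow and 0.914 and 1.04 for its KO chow arrays. Values are therefore given for each experiment, and strain names below mean the labels.

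The sorted cells carried their endothelial markers on every array, since all 12 of 12 markers listed (among them Pecam1, Cdh5 and Kdr) were well above background. Markers of other cells were present as well. In the aorta 8 of 9 adipocyte markers with a probe were above background on every array, with only Lep, the leptin gene, below it on all aortic arrays. All 7 fibroblast, 8 smooth muscle and 5 pericyte markers were above background on every aortic array as well. All 12 skeletal muscle fibre markers were above background on every muscle array. In a bulk sample of this kind, fewer cells of a type and less RNA per cell cannot be told apart.

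Of the 9 members, 8 were tested, having a probe well above background on all arrays of 1 group or more. Car12, a membrane enzyme, was the exception. Its brighter probe was above background on 1 of 12 aortic and 2 of 12 muscle arrays, its other probe on none, and no level is given for it. The plot of levels on the 24 arrays shows each value.

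**Figure D1:**
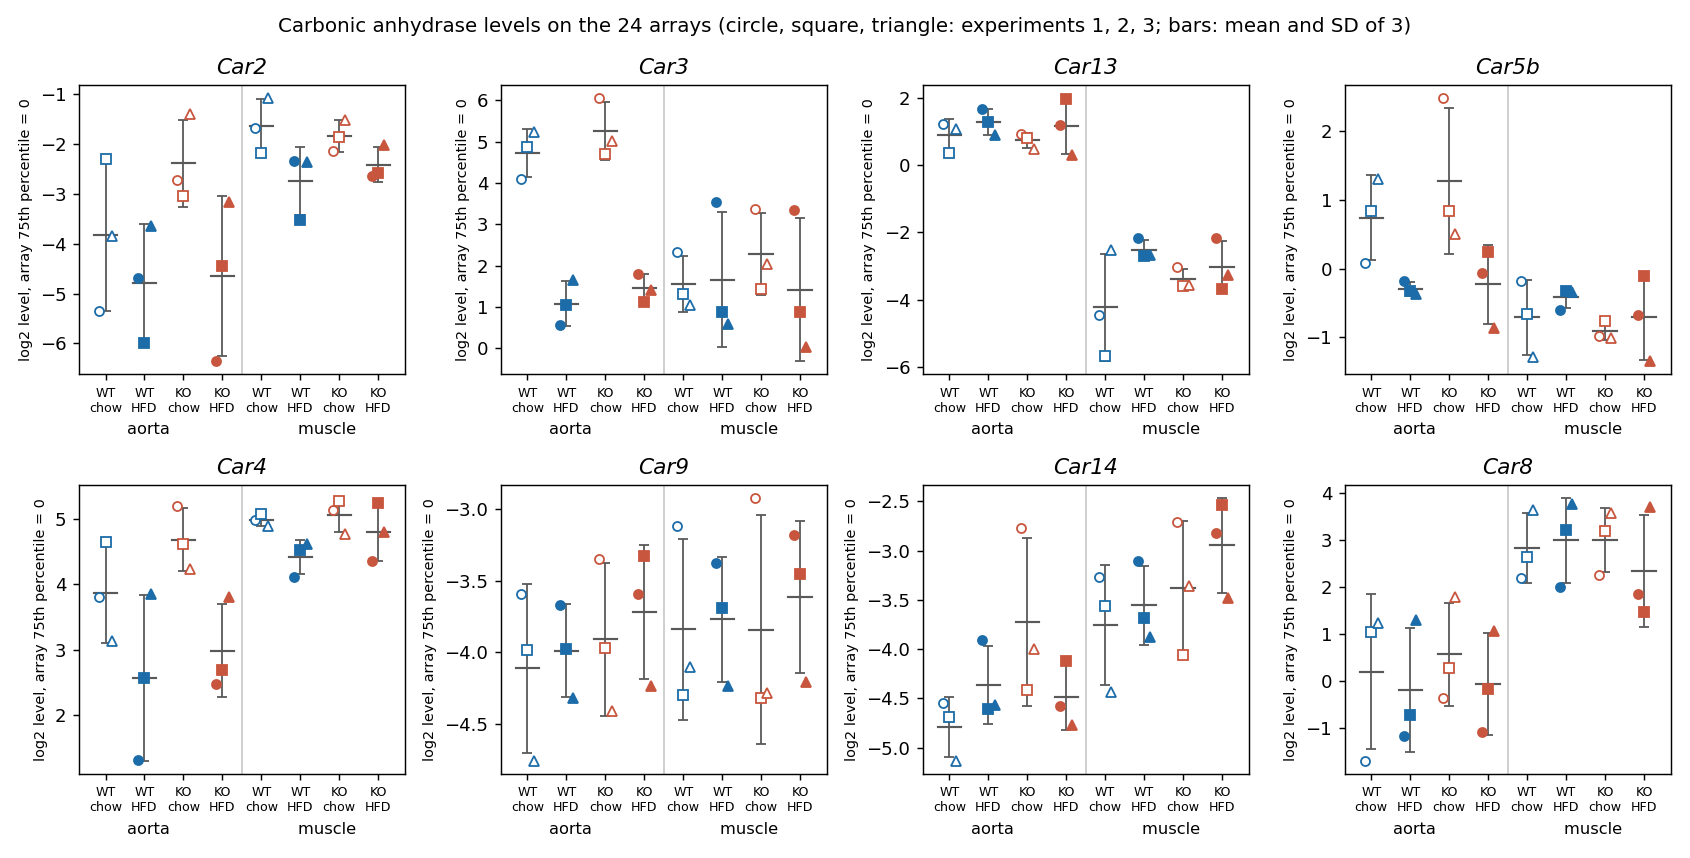
Level of each of the 8 tested members on the 24 arrays (vertical axis, log2 relative to the array's 75th percentile, a separate scale for each gene) in the 8 groups of tissue, strain and diet, with the mean and SD of 3 arrays as grey bars. In the aorta the chow arrays of Car3 sit between 4.09 and 6.05 and the HFD arrays between 0.55 and 1.81, while Car13 sits above 0 on every aortic array and below -2 on every muscle array.

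RefSeq promoter sequences on build GRCm38.p6 were found for 5 of 9 members. Promoters are shown for the capillary enzyme that was higher in muscle (Car4), the mitochondrial member (Car5b) and the hypoxia target of the family (Car9). The 250 bases before each start site are printed. They lie at chr11:84957504-84957753 on the plus strand, chrX:164028011-164028260 on the minus strand and chr4:43506776-43507025 on the plus strand. Each runs 5′ to 3′ along its gene, and capitals mark a match, on either strand, to 1 of 6 motifs. The core of the hypoxia response element was searched as ACGTG and, in its other form, as GCGTG. The GC box was searched as GGGCGG and the CCAAT box by those letters. The TATA box was searched as TATAAA, and the PPAR response element as a direct repeat with 1 free base between its arms.
Car4: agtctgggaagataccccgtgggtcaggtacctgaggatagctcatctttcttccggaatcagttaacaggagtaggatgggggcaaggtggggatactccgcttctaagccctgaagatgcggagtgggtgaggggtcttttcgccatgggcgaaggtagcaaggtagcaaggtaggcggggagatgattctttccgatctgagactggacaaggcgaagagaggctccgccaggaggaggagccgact
Car5b: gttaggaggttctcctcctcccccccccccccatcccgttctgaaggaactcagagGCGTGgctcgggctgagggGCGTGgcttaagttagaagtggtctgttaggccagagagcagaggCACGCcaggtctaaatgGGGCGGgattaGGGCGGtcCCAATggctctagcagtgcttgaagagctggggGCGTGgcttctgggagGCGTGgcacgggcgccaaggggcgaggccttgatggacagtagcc
Car9: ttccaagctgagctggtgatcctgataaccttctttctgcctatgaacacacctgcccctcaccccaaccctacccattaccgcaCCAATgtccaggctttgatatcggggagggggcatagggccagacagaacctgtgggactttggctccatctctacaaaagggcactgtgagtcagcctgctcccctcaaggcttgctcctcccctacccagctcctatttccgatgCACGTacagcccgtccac
Car4 held none of these letters. Car5b held 5 matches to GCGTG, 2 GC boxes and 1 CCAAT. Car9 held 1 ACGTG, on the opposite strand and starting 18 bases before the start site, and 1 CCAAT. The same search was made in 32851 promoter windows of this length, which are not every promoter of the annotation. Of these, 16.6% held ACGTG, 28.2% GCGTG, 32.7% GGGCGG, 33.8% CCAAT, 12.4% TATAAA and 0.0335% the PPAR element. A match describes the letters of the window and not a factor bound there.

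The diet comparison asked how 8 weeks of HFD changed the endothelium of each tissue in each strain. It was made within experiments, as the log2 ratio of the HFD to the chow array of the same strain, tissue and experiment. In the aorta 1 of 8 members, Car3, passed an adjusted p of 0.05 (limma, Benjamini-Hochberg) for the mean response over strains, against 0.0309% of 25865 probes, and it fell (0.0232% of probes did). For each strain alone no member passed in WT or in KO aorta, where 0% of probes did. At an unadjusted p under 0.05 it was 1 member in WT (Car3, 5.77% of probes) and 4 in KO (Car2, Car3, Car4 and Car5b, 11.3% of probes), all lower. In the aorta Car2 passed the probe filter only through its chow groups. Its lower mean on HFD is not independent of that filter. In muscle no member passed, in WT where 0% of probes did, in KO (0.00389%) or over both strains (0.288%). Unadjusted, Car2 and Car13 were under 0.05 in WT muscle (12.1% of probes) and over both strains (16.4%), and Car2 in KO muscle (8.49%). Averaged over tissues and strains 1 of 8 members passed, again Car3, against 2.79% of 27387 probes.

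Car3, which hydrates CO2 slowly and is among the most abundant cytosolic proteins of fat, gave the largest change. In WT aorta its levels in experiments 1, 2 and 3 were 4.09, 4.87 and 5.22 on chow and 0.55, 1.03 and 1.65 on HFD. In KO aorta they were 6.05, 4.69 and 5.03 on chow and 1.81, 1.12 and 1.41 on HFD. The chow and HFD arrays did not overlap in either strain, and every one of the 6 ratios lay between -4.25 and -3.54.

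The fitted Car3 change in the aorta was -3.65 (SE 0.26) in WT, adjusted p = 0.067 by limma, and -3.81 (SE 0.26) in KO, adjusted p = 0.069. Over both strains it was -3.73 (SE 0.18), a 13.3-fold lower level on HFD, adjusted p = 0.00798, the smallest adjusted p of the 25865 probes. Fitted without the pairing of arrays, the change passed the threshold in each strain too (adjusted p = 0.0353 in WT and 0.0235 in KO). The responses of KO and WT differed by -0.16 (SE 0.37, adjusted p = 1). The change over both strains was -3.65 without experiment 1, -3.74 without experiment 2 and -3.80 without experiment 3, and with 1 experiment fewer its adjusted p was 0.22, 0.31 and 0.168. The study had listed Car3 for its aortic response on these same arrays, so this result is not independent of that choice.

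In muscle Car3 levels were 2.33, 1.31 and 1.04 on chow and 3.53, 0.87 and 0.58 on HFD in WT. In KO muscle they were 3.37, 1.44 and 2.04 on chow and 3.35, 0.87 and 0.04 on HFD. The diets overlapped in both strains, and the change was -0.38 (SE 0.34, adjusted p = 0.609) over strains. The aortic response minus the muscle response was -3.35 (SE 0.40, adjusted p = 0.0779), and it lay between -4.48 and -2.37 in the 3 experiments. That difference passed the threshold under quantile normalization (adjusted p = 0.0484), normexp background correction (0.0136) and the filter on every array (0.0165).

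Adipocyte markers moved with Car3 in the aorta. The mean level of the 9 listed markers with a probe was 0.69 to 1.44 on WT chow arrays and -2.31 to -0.87 on WT HFD arrays. It was 1.16 to 3.02 on KO chow arrays and -1.38 to -0.51 on KO HFD arrays. The log2 of their summed level was 6.34 to 7.16 against 2.79 to 4.05 in WT, and 6.54 to 8.18 against 3.39 to 4.27 in KO. All 8 tested markers had a change below 0 over both strains, with a median of -3.37 beside 0.01 over all probes, 6 of the 8 under an unadjusted p of 0.05 and none past the adjusted threshold. The tissues had been cleaned of fat before digestion, and the part of adipocyte RNA in the Car3 values was not tested.

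In muscle, fibre markers moved with Car3 as well as adipocyte markers. The 3 highest Car3 levels in muscle, 3.53, 3.37 and 3.35, were all from experiment 1, where the mean level of the 12 skeletal muscle fibre markers was 2.88 to 3.46. In experiments 2 and 3 that mean was 0.13 to 2.20, and its highest value was on the KO chow array of experiment 3, which had the highest Car3 level of those experiments. The mean of the 9 adipocyte markers was -0.92 to 0.72 on the muscle arrays of experiment 1 and -2.23 to -0.29 in experiments 2 and 3. The 6 slow fibre markers were also highest in experiment 1, with means of -0.52 to 0.78 against -2.73 to -1.56 in the others. On the KO chow array of experiment 3 their mean was -2.42. The log2 of their summed level there was 2.50, the highest in experiments 2 and 3, where the lowest was 1.41. With diet their median was 0.64 over both strains, with 5 of 5 tested above 0, where Car3 was at -0.38. The part of these cell types in the muscle values was not tested.

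**Figure D2:**
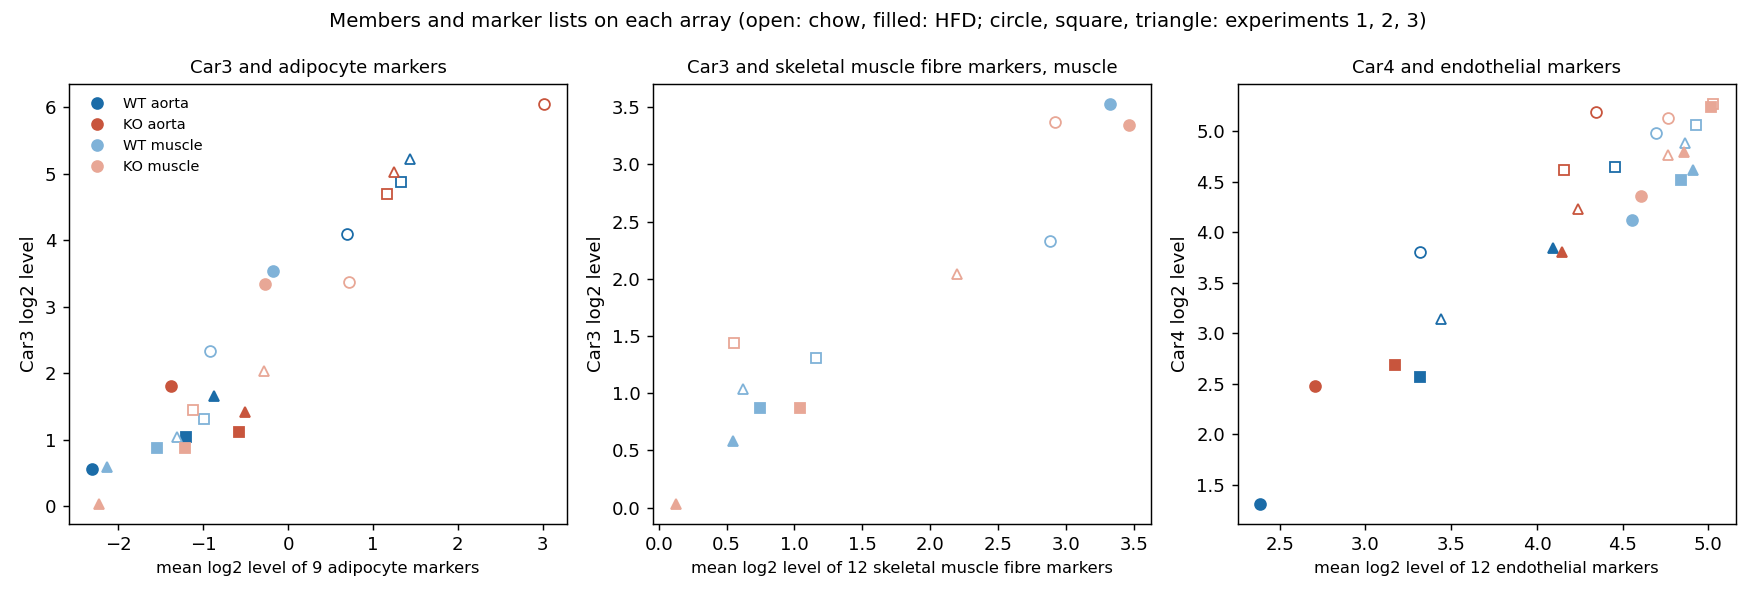
Level of a member (vertical axis) against the mean log2 level of a marker list (horizontal axis) on each array, for Car3 with 9 adipocyte markers in both tissues, Car3 with 12 skeletal muscle fibre markers on the 12 muscle arrays, and Car4 with 12 endothelial markers in both tissues. Open symbols are chow, filled symbols HFD, and symbol shape gives the experiment. The 6 aortic chow arrays stand at the upper right of the Car3 and adipocyte panel, and the WT HFD array of experiment 1 is lowest for both Car4 (1.31) and the endothelial markers (2.39).

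Car2, the fast cytosolic enzyme of red cells and many epithelia, was near background in the aorta, above it on 10 of 12 arrays. Its WT aortic levels were -5.35, -2.30 and -3.85 on chow and -4.70, -5.99 and -3.65 on HFD. In KO aorta they were -2.71, -3.04 and -1.39 on chow and -6.35, -4.44 and -3.16 on HFD. Only 2 of 3 arrays were well above background in each aortic HFD group. The WT diets overlapped and the KO diets did not, though the gap in KO was 0.12.

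The Car2 difference in the aorta was -1.61 (SE 0.62, adjusted p = 0.304) over strains, and in WT 2 of 3 ratios were above 0. In muscle, where every array was above background, the differences were smaller and all of 1 sign. The 6 ratios were -0.66, -1.36 and -1.28 in WT and -0.50, -0.73 and -0.50 in KO. The difference over strains was -0.84 (SE 0.16), and its limma adjusted p of 0.105 missed the threshold.

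Averaged over both tissues Car2 differed by -1.22 (SE 0.35, adjusted p = 0.0809), which passed with normexp background correction (adjusted p = 0.0398). Beside it, the erythroid markers did not keep to 1 direction with diet in the aorta, since all 4 tested markers were above 0 in WT and all 4 below 0 in KO. The median change of those markers was 0.49 in WT and -1.07 in KO, with none under an unadjusted p of 0.05 in WT, 2 of 4 in KO and none past the adjusted threshold. In muscle their mean level differed by -0.61, 0.17 and -0.18 in WT and by 0.15, 0.44 and 0.21 in KO. The pericyte markers in muscle differed in mean level by -0.46, -1.11 and -0.63 in WT and by -0.59, -0.49 and -0.47 in KO. The part of these cells in the Car2 values was not tested.

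Car13, a cytosolic enzyme of moderate activity, had higher mean levels on HFD in muscle, which did not pass. Its levels in WT muscle were -4.46, -5.70 and -2.53 on chow and -2.17, -2.69 and -2.68 on HFD. In KO muscle they were -3.03, -3.59 and -3.55 on chow and -2.17, -3.67 and -3.27 on HFD. The WT chow array of experiment 3 was as bright as the HFD arrays, and the diets overlapped in both strains. The WT difference of 1.72 (SE 0.57) had a limma adjusted p of 0.318. The mean level of the fibroblast markers was higher on HFD in all 6 muscle pairs, at -0.03 to 2.58 on chow and 0.45 to 3.80 on HFD, and its part in the Car13 values was not tested. In the aorta the difference over strains was 0.40 (SE 0.25, adjusted p = 0.485).

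**Figure D3:**
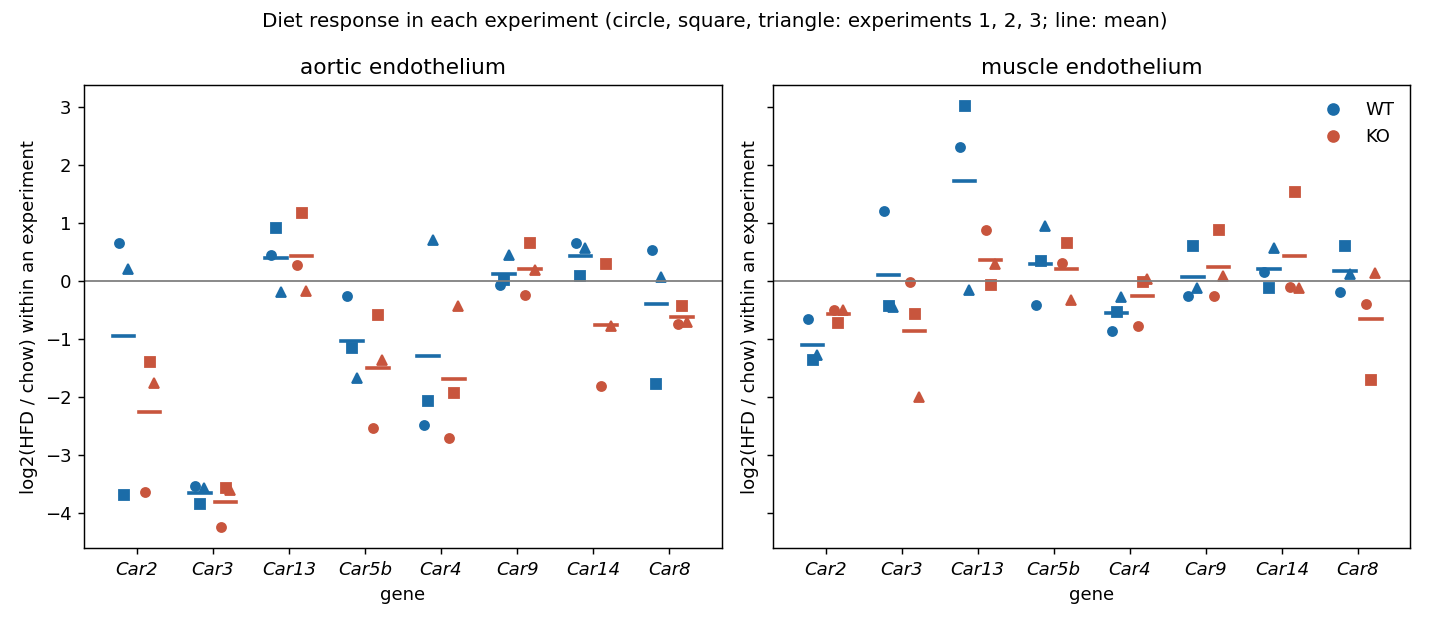
The log2 ratio of the HFD to the chow array within each experiment (vertical axis) for the 8 tested members in aortic (left) and muscle (right) endothelium, WT in blue and KO in red, with a line at the mean of 3. All 6 aortic ratios of Car3 lie below -3.5, and those of Car5b lie below 0, while the ratios of Car9 stay between -0.26 and 0.87 in both tissues.

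Car5b, the mitochondrial enzyme that supplies bicarbonate to pyruvate carboxylase, had lower levels on HFD in the aorta in both strains, though the difference did not pass. Its levels in WT aorta were 0.08, 0.84 and 1.31 on chow and -0.17, -0.33 and -0.37 on HFD. In KO aorta they were 2.49, 0.84 and 0.50 on chow and -0.06, 0.25 and -0.87 on HFD. The diets did not overlap in either strain, with a gap of 0.26 in WT and 0.25 in KO.

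The Car5b difference was -1.04 (SE 0.45) in WT and -1.50 (SE 0.45) in KO. Over both strains it was -1.27 (SE 0.32), with an adjusted p of 0.2. In muscle the same probe gave 0.25 (SE 0.23, adjusted p = 0.626), and the aortic response minus the muscle response was -1.51 (SE 0.41, adjusted p = 0.287). Over the 12 aortic arrays Car5b and Car3 had a Pearson r of 0.83, a description of arrays that share diets, slides and pools. The adipocyte markers were lower on HFD in all 6 aortic pairs, with differences in mean level of -4.40 to -1.74, and the brown adipocyte markers had a median of -1.13. The array with the highest aortic Car5b level, KO on chow in experiment 1, was also highest for the adipocyte (3.02) and brown adipocyte (3.30) means. The part of these cells in the Car5b values was not tested.

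Car4, the membrane enzyme of the capillary lumen, was above background on every array. Its levels in WT aorta were 3.81, 4.64 and 3.14 on chow and 1.31, 2.56 and 3.84 on HFD. In KO aorta they were 5.19, 4.62 and 4.24 on chow and 2.48, 2.68 and 3.80 on HFD. The WT diets overlapped, because in experiment 3 the HFD array was the brighter, and the KO diets did not.

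The Car4 difference in the aorta was -1.49 (SE 0.49, adjusted p = 0.263) over strains. The endothelial markers moved with it experiment by experiment. Their mean level differed by -0.93, -1.14 and 0.65 in WT and by -1.64, -0.98 and -0.09 in KO, and Car4 by -2.49, -2.08 and 0.70 in WT and by -2.72, -1.94 and -0.43 in KO. All 12 markers had a change below 0 over both strains, with a median of -0.65 beside 0.01 over all probes, 4 of 12 under an unadjusted p of 0.05 and none past the adjusted threshold. The mean level of 6 capillary endothelial markers (among them Gpihbp1 and Cd36) differed by -0.67, -0.80 and 0.61 in WT. In KO it differed by -1.39, -0.09 and -0.28, so in experiment 2 it hardly moved beside -1.94 for Car4. All 6 were below 0 over both strains, with a median of -0.54, and 0 of 6 had an unadjusted p under 0.05. The part of endothelial content in the Car4 values was not tested.

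In muscle Car4 ran from 4.12 to 5.27 over the 12 arrays, and its difference with diet was -0.41 (SE 0.18, adjusted p = 0.315). The WT chow and HFD arrays did not overlap there, with a gap of 0.27, and the KO arrays did. The endothelial markers there had a median change of -0.01.

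Car9 and Car14, the other membrane enzymes, gave no change with diet that passed. Car9 levels ran from -4.75 to -3.33 in the aorta and from -4.32 to -2.92 in muscle. They differed more between experiments than between diets, with aortic means of -3.55, -3.81 and -4.43 in experiments 1 to 3. The Car9 difference with diet was 0.16 (SE 0.20) in the aorta and 0.15 (SE 0.21) in muscle, with adjusted p of 0.736 and 0.755. Car14 differed by -0.17 (SE 0.29) in the aorta and 0.31 (SE 0.26) in muscle, with adjusted p of 0.82 and 0.583.

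Car8, the inactive relative best known from cerebellar Purkinje cells, was read by 2 probes. The brighter gave a diet difference of -0.51 (SE 0.32, adjusted p = 0.479) in the aorta and -0.25 (SE 0.26, adjusted p = 0.676) in muscle. The other probe gave -0.04 (SE 0.24) and 0.30 (SE 0.17), so the sign in muscle depended on the probe. The brighter probe also stepped between experiments, with aortic means of -1.08, 0.11 and 1.35 and muscle means of 2.07, 2.63 and 3.68 in experiments 1, 2 and 3. The means of the other probe were -0.84, -0.41 and -0.57 in the aorta and 1.99, 2.46 and 1.93 in muscle.

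By the study's own rule of a log2 ratio beyond 1 in all 3 experiments, Car3 was lower in both strains of the aorta and Car2 in KO aorta. That made 1 of 8 members in WT, where 0.862% of probes met the rule in this direction, and 2 of 8 in KO, where 1.13% did. Of these, Car2 was above background on 2 of 3 KO HFD arrays and passed the probe filter only on chow. With the filter on every array it was not tested in the aorta. No member met it in muscle, where 0.958% of probes were lower in WT and 0.532% in KO.

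The strain comparison asked whether loss of galectin-3 changed these genes, and no member passed in any form of it. Among arrays labelled KO and WT the adjusted p of every tested member was 1, in each tissue on each diet and over all 24 arrays. Of the probes, 0.139% of 27387 passed over all arrays, 0.0116% of 25865 on chow in the aorta and also over both diets there, 0.00387% on HFD there, and 0% in muscle. Unadjusted, Car14 alone was under 0.05, over all arrays (4.35% of probes) and on chow in the aorta (4.41%). Car14 was 0.48 higher in KO over all arrays (SE 0.22), with KO above WT in the mean of each experiment (0.49, 0.35 and 0.60). On chow in the aorta its levels were -4.54, -4.69 and -5.13 in WT and -2.77, -4.41 and -3.99 in KO, groups that did not overlap. That difference was 1.06 (SE 0.43). On HFD in the aorta it was -0.13, with levels of -3.90, -4.61 and -4.56 in WT and -4.58, -4.12 and -4.77 in KO. By the probe used, all 8 members had an overall difference above 0, from 0.01 to 0.48, where 55.3% of all probes were above 0. The median was 0.25 beside 0.02 over all probes. The low end was Car8, and its other probe gave -0.05, so its sign depended on the probe.

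The diet response did not differ between strains for any member past the threshold. In the aorta the KO response minus the WT response ran from -1.32 for Car2 to 0.07 for Car9, and every adjusted p was 1, where 0% of 25865 probes passed and no member was under an unadjusted p of 0.05 (2.62% of probes were). In muscle it ran from -1.36 for Car13 to 0.52 for Car2 with an adjusted p of 0.999 throughout, where 0% of 25682 probes passed (4.12% unadjusted, no member among them). The tissue difference in the diet response passed for no member either, where 0% of 27387 probes did, and Car3 and Car5b were under an unadjusted p of 0.05 (9.24% of probes).

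The tissue comparison set aortic against muscle endothelium, and here 7 of 8 members passed over all 24 arrays (limma adjusted p under 0.05), a share to be read against the 46.1% of 27387 probes that did. Car3, Car5b and Car13 were higher in the aorta (16% of probes were) and Car2, Car4, Car8 and Car14 higher in muscle (30.1%). The median difference over all probes was -0.27, and each value is to be set beside that shift. The deposited log2 table, whose 75th percentile was 12.1 on aortic and 11.9 on muscle arrays, moved the median to -0.01 and the share of calls that were higher in the aorta from 34.6% to 58.9%, and the same 7 members passed. Each slide held 1 tissue, so tissue and slide cannot be told apart within an experiment, and the 7 members passed with slide as a random block too.

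Car13 had the widest gap. On the 12 aortic arrays it ran from 0.31 to 1.99 and on the 12 muscle arrays from -5.70 to -2.17, so the tissues did not overlap. The difference was 4.32 (SE 0.29, adjusted p = 1.98e-09), a 20.0-fold higher level in the aorta, and it was between 3.81 and 5.13 in each of the 4 strain and diet groups. It lay above 0 in 12 of 12 pairs from the same pool of mice. The fibroblast markers (among them Col1a1 and Dcn) stood higher in the aorta too, 7 of 7 past the threshold with a median of 4.01, and their part in the Car13 gap was not tested.

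Car8 was the counterpart in muscle. The brighter probe differed by -2.67 (SE 0.43, adjusted p = 5.78e-05) and the other by -2.74 (SE 0.15, adjusted p = 2.6e-10), and aorta was lower in 12 of 12 pairs. Both probes therefore gave the same tissue gap, although only the brighter stepped between experiments. The skeletal muscle fibre markers were lower in the aorta as well, 12 of 12 past the threshold with a median of -6.65, and so were 5 of 5 tested slow fibre markers, with a median of -2.65. The endothelial markers were lower there too, 11 of 12 past the threshold with a median of -1.06. Within muscle the fibre mean was highest in experiment 1, at 2.88 to 3.46. The brighter Car8 probe had its lowest muscle mean there, 2.07, and the other probe had 1.99 against 2.46 and 1.93. The part of these cell types in the Car8 gap was not tested.

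Car3 and Car5b were higher in the aorta past the threshold on chow and not on HFD. Car3 differed by 3.17 (SE 0.78, adjusted p = 0.00992) in WT on chow and 2.98 (SE 0.78, adjusted p = 0.0261) in KO on chow, against -0.58 and 0.03 on HFD. Over all groups the Car3 gap of 1.40 was -0.02 in experiment 1, and without experiment 2 or 3 it no longer passed, being 1.19 (adjusted p = 0.144) and 0.90 (adjusted p = 0.202). Car5b differed by 1.45 (SE 0.46, adjusted p = 0.0371) in WT and 2.19 (SE 0.46, adjusted p = 0.00543) in KO on chow, against 0.13 and 0.48 on HFD. The adipocyte markers had the same order. Their median gap was 3.57 in WT and 3.05 in KO on chow, with 5 and 4 of 8 higher past the threshold, against 0.31 and 0.91 on HFD with none higher past it. Their part in these gaps was not tested. The test of chow against HFD in these gaps is the tissue difference in the diet response given above, which passed for neither gene.

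Car4 was lower in the aorta by 1.29 (log2 difference -1.29, SE 0.25, adjusted p = 0.000413), in 11 of 12 pairs. Within groups it passed on HFD in WT, -1.84 (SE 0.51, adjusted p = 0.0166), and in KO, -1.81 (SE 0.51, adjusted p = 0.0186), and not on chow. The endothelial markers stood lower in the aorta too, 12 of 12 below 0 and 11 past the threshold, with a median of -1.06. Their part in the Car4 gap was not tested.

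The other members with a gap were Car2 and Car14. Car2 differed by -1.75 (SE 0.39, adjusted p = 0.00112) and was lower in the aorta in 11 of 12 pairs. Car14 differed by -0.93 (SE 0.22, adjusted p = 0.00182) and was lower in 12 of 12. Car2 was above background on 10 of the 12 aortic arrays. The mean level of the pericyte markers was 1.71 to 2.57 on aortic and 2.10 to 3.59 on muscle arrays. The part of pericytes or of any other cell type in the Car2 and Car14 gaps was not tested. Car9 gave -0.17 (SE 0.22, adjusted p = 0.559), the tested member that did not pass, and within any 1 group between 3 and 4 members passed, where 6.4% to 16.7% of probes did.

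**Figure D4:**
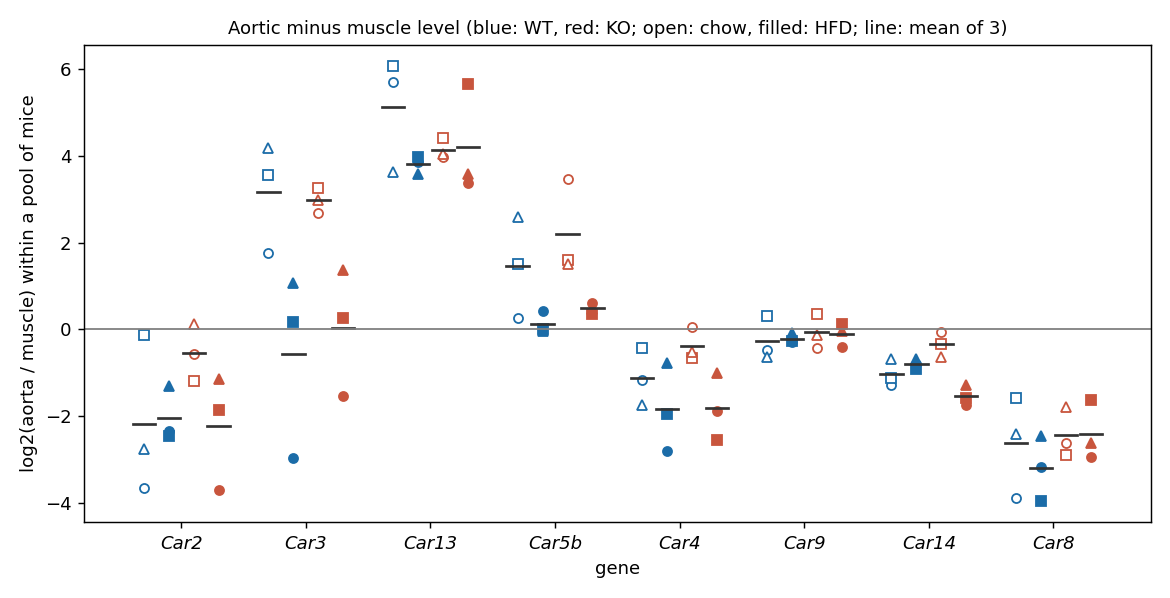
The aortic minus the muscle level (vertical axis, log2, muscle = 0) of the 8 tested members in each pool of mice, in WT (blue) and KO (red) on chow (open) and HFD (filled), with a line at the mean of 3. Car13 lies above 3 in every pool and Car8 below -1 in every pool, while the means of Car3 and Car5b are higher on chow than on HFD and single pools of Car3 on HFD spread from -2.98 to 1.37.

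Of 7 other carbonic anhydrase genes 6 had a probe, and 4 of these were tested. Car6 and Car10, the secreted and the brain form, were not above background on a whole group, and Car5a had no probe. Car1, Car7, Car11 and Car15 gave no call with diet in the aorta, and 1 of the 4, Car15, was under an unadjusted p of 0.05 over both strains. Car15, a membrane form, gave -1.28 (SE 0.42) in WT aorta with an adjusted p of 0.733, and levels of -3.75, -3.51 and -3.98 on chow against -4.87, -5.41 and -4.80 on HFD. In KO aorta it gave -0.40, with levels of -3.75, -4.28 and -4.38 on chow against -5.21, -4.53 and -3.89 on HFD. Between tissues Car11, an inactive relative, was 1.93 higher in the aorta (SE 0.38, adjusted p = 0.00042) and Car7 differed by -0.56 (SE 0.14, adjusted p = 0.00237). Car13, Car1, Car3 and Car2 lie next to each other in that order on chromosome 3 in the RefSeq annotation. In the aorta Car3 was lower on HFD, and Car2 had a lower mean level on HFD that did not pass. Car13 differed by 0.40 and Car1 by -0.27 there, neither past the threshold.

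The genes that carry or use bicarbonate and acid gave few calls with diet. Of the 21 transporters and channels listed, 17 were tested in the aorta and none passed (5 under an unadjusted p of 0.05, as were 15.1% of all probes), and 14 in muscle, where 1 did. That was Slc4a8, a sodium-driven chloride and bicarbonate exchanger, at -1.44 (SE 0.19, adjusted p = 0.0491) in muscle beside -2.24 (SE 0.30, adjusted p = 0.0793) in the aorta. Slc4a8 also gave one of the widest tissue gaps of the list, -3.80, and Slc4a10, a sodium and bicarbonate carrier, the widest in the other direction, 6.64. The medians of the list with diet were 0.23 in the aorta and 0.05 in muscle, beside 0.01 and -0.01 over all probes.

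The 7 bicarbonate-using enzymes tested had no call with diet, with none under an unadjusted p of 0.05 in the aorta and 1 in muscle. Their median was -0.24 in the aorta, with 6 of 7 below 0, led by Pcx, pyruvate carboxylase, at -0.89 (SE 0.44, adjusted p = 0.388). The 17 hypoxia targets had no call with diet (5 under an unadjusted p of 0.05 in the aorta and 2 in muscle, beside 15.1% and 16.4% of all probes), with medians of -0.04 in the aorta and -0.20 in muscle. Bnip3, a mitophagy receptor induced by hypoxia, gave -0.86 (SE 0.32, adjusted p = 0.294) in the aorta and -0.61 (SE 0.21, adjusted p = 0.237) in muscle. None of the 5 hypoxia-inducible factors and regulators tested passed with diet, and unadjusted none was under 0.05 over both strains in either tissue, with 1 of 5 lower in WT muscle and 1 of 5 in KO muscle.

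The genes with the pattern most like each member over the 24 arrays were found by Pearson r. For Car3 they were Chchd10 (0.96), Cidec (0.94) and Adipoq (0.93), the last 2 in the adipocyte list. For Car4 they were Pkp4 (0.97), Pde2a (0.97) and Lpar6 (0.95), and for Car13 Cyp1b1 (0.98), Pqlc3 (0.97) and Il33 (0.97). For Car8 they were Nck1 (0.95), Ndfip2 (0.94) and Ptprr (0.94), and for Car9 Vwa5b2 (0.95), Inava (0.95) and Tfap2b (0.95). For Car2 they included Ppp3ca (0.91) and Exoc6 (0.91), for Car5b Hibch (0.90), Mogat1 (0.89) and Gstz1 (0.87), and for Car14 Hbb-bt (0.88), Ncam1 (0.87) and Rgs12 (0.87). These arrays share slides, pools and tissues, and within muscle alone the r of Gstz1 with Car5b was -0.03 against 0.97 in the aorta.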

How the data were processed

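The arrays were 1-colour Agilent arrays (Cy3). The deposited intensity values are background-subtracted, detrended signals per the file headers (Feature Extraction 10.5.1.1, where the labels name version 9.1). The deposited log2 table equalled the log2 processed signal plus a constant for each array, by a rule not given in the sources used here, and was an alternative. Signals were taken as log2, spots of a probe averaged, and each array's 75th percentile subtracted. Probes above background on all arrays of 1 group or more were tested with limma 3.58.1 in R 4.3.3, with Benjamini-Hochberg adjustment over all probes. Diet was tested on HFD to chow ratios within experiment, strain and tissue, as the study's methods formed them; strain and tissue were tested on group means. Experiments pair the samples by the labels. The r of paired deviations was 0.007 to 0.452 for diet, 0.072 to 0.404 for tissue and 0.068 to 0.587 for strain. Replicates are 3 experiments, and the diet p-values measure the spread of the ratios between them. The strain and tissue p-values measure the spread of arrays within groups. Those fits had no term for a shared slide or pool of mice and took the arrays as independent. The number of arrays limits the precision. A pool is 3 mice in the methods and 3 to 4 in the series' design text. Members and lists were chosen with earlier results of these data known. Named genes were all members, the other family genes, called list genes or at most 3 with the largest change, and the 3 symbols most alike, of which 1 is not reported here. The fit was run on simulated arrays with known changes and noise independent between arrays. That checks whether the changes are recovered and cannot show how shared pools or slides affect the p-values. Alternatives were background correction, normalization, dim-probe filter, pairing, probe, left-out experiments, slide and the methods' t-test.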

Additional observations from a re-analysis of the deposited data

How the results depend on the processing

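Of the member values with an unadjusted p under 0.05, 50 in all, none changed sign in 497 alternative values; of the other 126, 85 of 1246 did. The number of members called for diet rose from 0 to 1 (Car3) in WT aorta and from 0 to 1 (Car3) in KO aorta with normexp, with the filter on every array and with no replicate block, that is without the pairing. The aortic call over both strains fell from 1 to 0 without any 1 experiment (range 0 to 0). The aortic minus muscle response went from 0 to 1 (Car3) with normexp, quantile normalization and the filter on every array. The diet effect over all arrays went from 1 to 2 with normexp (Car2 added) and with the filter on every array (Car4 added), and to between 0 and 1 with 1 experiment left out (0 without experiment 2 or 3). Tissue calls within WT chow fell from 4 to 2 with no filter and to 1 without experiment 2 or 3. Within WT HFD and within KO HFD they fell from 3 to 1 without experiment 1 or 2 and rose to 5 with the replicate block by pool of mice. Within KO chow they fell from 3 to 1 without experiment 2. That block also raised WT chow to 6 (Car2 and Car14 added) and KO chow to 4 (Car8 added). The methods' t-test called 0 probes after Benjamini-Hochberg in its 6 comparisons, with 1218 in WT and 1736 in KO aorta under an unadjusted 0.05. Without the pairing 50 probes passed for diet in the aorta against 8. Leaving out an experiment also leaves fewer samples; the cause of the other changes was not tested. Car12 was too close to background to be measured, and Car2 in the aorta nearly so.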
